A study of Mus musculus with 32 samples.

Results

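The Bcat1 and Sox5 domain is a stretch of mouse chromosome 6, from 143.5 to 145.5 Mb of the mm10 build, that holds Sox5, Bcat1 and neighbours such as Lrmp, Casc1 and Etfrf1. Its members were the transcripts of the authors' deposited table of chromatin-enriched RNA (cheRNA) that are named for Bcat1 or Sox5 or lie in that stretch, which came to 33 of the 5723 transcripts listed. The peaks of the 4 R-loop libraries in the same stretch were taken with them and merged into 21 regions, of 36105 in the genome. The stretch was chosen by the measured cheRNA values themselves, so the numbers and fold changes of its cheRNA are given as a description, with no test.

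Mouse embryonic stem cells of 2 genotypes, wild type (WT) and H1-TKO, a triple knockout of linker histone H1 genes, were grown in serum with LIF. cheRNA, which sediments with chromatin when nuclei are opened in urea and detergent, was sequenced in strand-specific libraries from 3 samples per genotype. R-loops were mapped by MapR, in which a catalytically dead RNase H fused to micrococcal nuclease (RNH) releases DNA near RNA:DNA hybrids, in 2 libraries per genotype, with 1 library per genotype of the nuclease without RNase H as control. The labels do not say whether a genotype was 1 clone or whether replicates were separate cultures, so the spread behind a p-value is that between samples and may be technical only.

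Bcat1 encodes the cytosolic branched-chain aminotransferase, which passes the amino group of leucine, isoleucine and valine to alpha-ketoglutarate. Sox5 is a SoxD transcription factor that binds DNA through an HMG box, has no activation domain of its own, and works with Sox6 and Sox9 in cartilage; it is also known from neurons and glia. An R-loop forms where nascent RNA pairs with its DNA template and leaves the other strand single; G-rich RNA on a C-rich template is known to favour it.

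Sequences of parts of 4 RNH regions are given, read from RefSeq's GRCm38.p6 (mm10). The first lies just inside the most upstream GENCODE intron of Sox5, on its minus strand at chr6:144781514-144781813. It is in a region with peaks in both TKO libraries and in neither WT library. The window lies under the peak of TKO replicate 1 and holds its summit, while the peak of TKO replicate 2, chr6:144781829-144782000, lies wholly outside it. Runs of 3 or more G are in capitals.
Sox5 distal intron: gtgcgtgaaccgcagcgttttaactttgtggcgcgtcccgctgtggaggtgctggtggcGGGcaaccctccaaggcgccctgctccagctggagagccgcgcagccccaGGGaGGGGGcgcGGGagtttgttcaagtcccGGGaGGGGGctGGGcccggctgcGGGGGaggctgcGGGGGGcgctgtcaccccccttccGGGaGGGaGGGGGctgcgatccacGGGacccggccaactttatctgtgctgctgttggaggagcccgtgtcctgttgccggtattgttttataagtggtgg
This 300-base window had 68.0% G + C, 23 CpG and 13 runs of 3 or more G, against a median of 5 runs in the 32851 RefSeq promoter windows of the same length read on the strand of the gene. Of those promoter windows, whose median G + C was 52.7%, 5.97% had at least as many runs. The windows were not matched for G + C.

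The second is the part of the RNH region at the Bcat1 start that lies in its first intron, on the minus strand at chr6:145075770-145075888, with the same use of capitals. The summit of the peak there, at 145076034, lies outside this part.
Bcat1 first intron: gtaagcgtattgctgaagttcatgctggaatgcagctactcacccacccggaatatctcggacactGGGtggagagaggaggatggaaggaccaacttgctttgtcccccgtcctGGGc
In its 119 bases there were 2 such runs and 55.5% G + C.

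The third is a stretch of 160 bases in a Sox5 intron, on the minus strand at chr6:144668317-144668476, around the summit of the TKO replicate 1 peak. It lies in a merged region with peaks of all 4 libraries, but the peak of WT replicate 1, chr6:144668673-144669016, does not reach it and does not overlap that of TKO replicate 2, chr6:144668238-144668441. Capitals again mark runs of 3 or more G.
Sox5 intronic region: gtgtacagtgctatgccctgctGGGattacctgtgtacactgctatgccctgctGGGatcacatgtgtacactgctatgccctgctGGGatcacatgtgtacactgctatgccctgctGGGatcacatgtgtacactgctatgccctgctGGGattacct
These letters repeat every 32 bases, hold no CpG, and belong to a tandem array of 2864 bp at chr6:144667284-144670147. In the 300 bases around the summit, 94.4% of bases matched the base 32 further on. The merged region, 972 bp of that array, was 2.37% soft-masked in the reference, so most of this part is not among its marked repeats. The reads' placement on so repetitive a sequence could not be examined in peak lists.

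The fourth is the whole interval between the divergent genes Casc1 and Etfrf1, on the plus strand at chr6:145211018-145211133, which peaks of all 4 libraries overlapped with their summits outside it. Capitals mark CpG.
Casc1-Etfrf1 interval: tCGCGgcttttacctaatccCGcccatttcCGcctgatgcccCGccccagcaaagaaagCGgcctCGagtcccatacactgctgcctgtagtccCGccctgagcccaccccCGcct
It had 64.7% G + C and 9 CpG in 116 bases.

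In the authors' deposited table, all 33 transcripts of the domain were higher in TKO and none was lower. Among all listed transcripts 60.1% were higher, and on the rest of chromosome 6 there were 246 higher and 230 lower. Each transcript has 1 log2 fold change there, with neither a p-value nor the values of single samples, and the table holds no transcript with an absolute log2 under 1.00. Its sign is not stated; it was read from Hist1h1c, Hist1h1d and Hist1h1e, known as the genes deleted in H1 triple knockout cells, whose log2 values were -3.61, -5.02 and -4.83 in TKO after that reading. The median over the domain was a log2 fold change of 3.04, or 8.20-fold, and the range ran from 1.12 to 7.42. Over all listed transcripts that were higher, the median was 2.24, or 4.72-fold.

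By the authors' classes, the 33 transcripts were 6 of genes, 24 intergenic, 1 antisense within a gene and 2 on the 5′ side of a gene. All members of each class were higher in TKO, and in the whole table the share that was higher was 45.0% of gene, 74.0% of intergenic, 86.6% of antisense and 66.4% of 5′ side transcripts. Since the rule used this contrast, nothing is read from these counts. The plot of fold change along the domain shows the minus strand, on which Sox5 and Bcat1 are transcribed, with 27 transcripts and a median log2 of 2.99, and the plus strand with 6 and a median of 4.69.

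**Figure D1:**
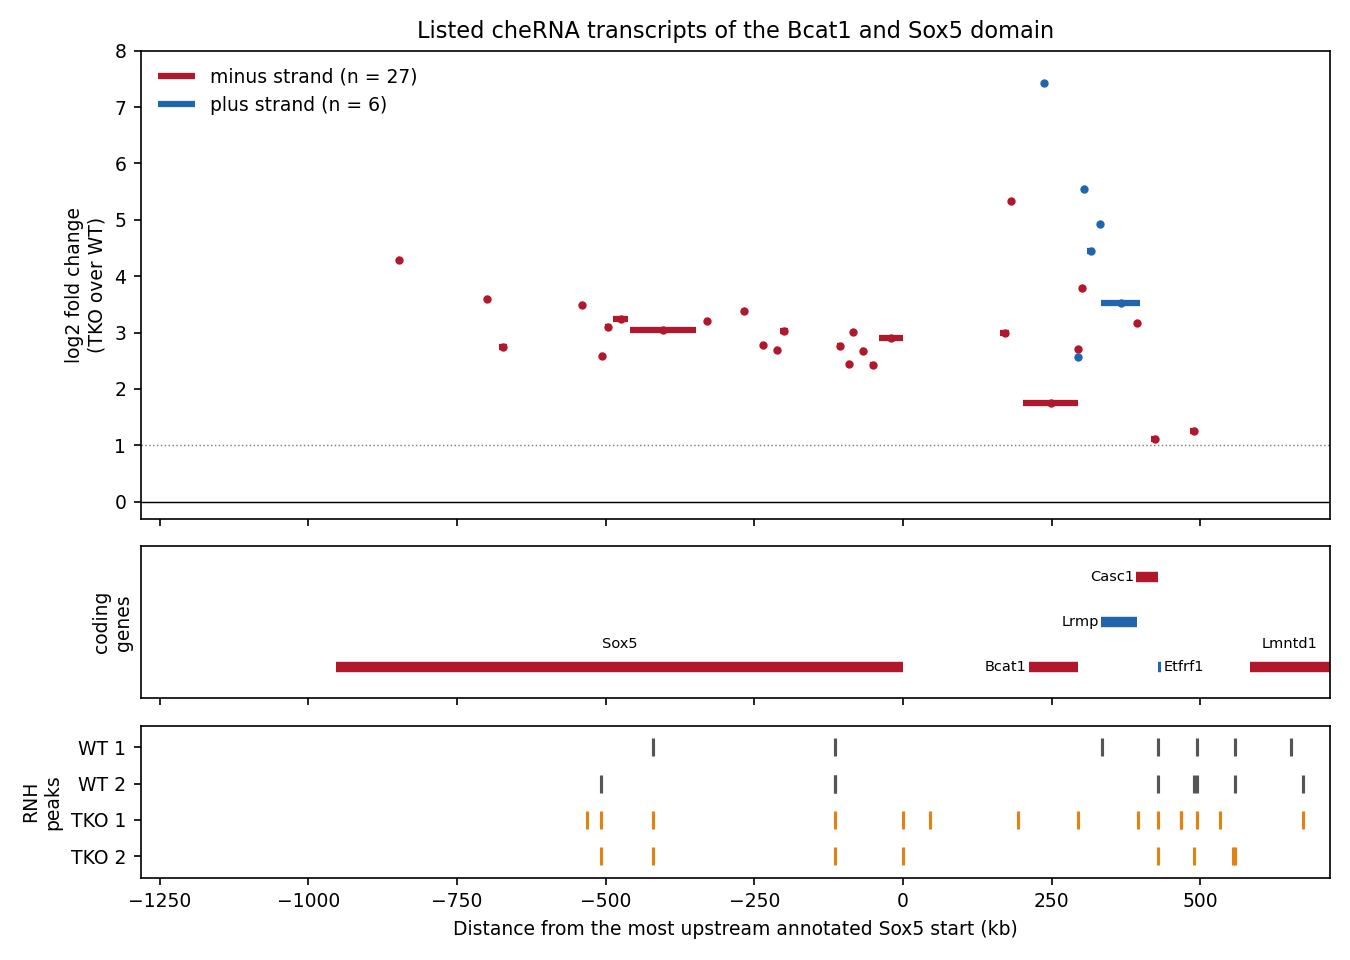
Top, log2 fold change (TKO over WT, authors' deposited table) of the 33 listed transcripts against distance in kb from the most upstream GENCODE start of Sox5, with a line for the extent and a point for the middle of each, coloured by strand, and a dotted line at log2 1; middle, the protein-coding genes named in the text, with Lmntd1 running past the right edge; bottom, RNH regions with a peak in each library. Transcripts across Sox5 sit mostly between 2.43 and 3.48, those around Bcat1 spread from 1.75 to 7.42, and all 33 lie above 1.

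Sox5 spans chr6:143828425-144781977 in GENCODE, 953553 bp on the minus strand, and has 14 annotated transcripts of which 7 code for protein. The most upstream start of a coding transcript is at 144209568, while 2 non-coding transcripts begin at or near the distal end, 572409 bp further upstream. The table's Sox5 gene class held 3 separate pieces within the coding part. The one nearest the 3′ end, chr6:143932776-143936041, was 19.4-fold higher in TKO (log2 4.28). The next, chr6:144078852-144086194, was 12.0-fold higher (log2 3.59). The third, chr6:144101672-144116639, was 6.67-fold higher (log2 2.74).

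Upstream of those coding starts lay 16 of the 33 transcripts, inside the part of Sox5 that only non-coding transcripts cover in GENCODE. Transcript types in RefSeq were not examined. All 16 were on the Sox5 strand and called intergenic in the table, 10 under the name Sox5 and 6 under the name Bcat1. The 6 carry the name Bcat1 although they lie inside Sox5, 211844 to 312323 bp from Bcat1. Of the domain's 24 intergenic transcripts, 17 (70.8%) overlapped a coding gene on its own strand, against 11.4% of the 1937 in the table. Thus 19 of the 33 transcripts fell within annotated Sox5.

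The 16 upstream pieces were close to each other in fold change. Their log2 values ran from 2.43 to 3.48 with a median of 2.96 and an SD of 0.32 over pieces. The 1410 higher intergenic transcripts outside the domain had a median of 2.61 and an SD of 1.52. Those lie across the genome, whereas the 16 are neighbours within 1 gene, and the spread within other genes was not measured. The longest of the 16, chr6:144322667-144434487, covered 111821 bp and was 8.28-fold higher in TKO (log2 3.05). Pieces nearer the coding starts had the larger fold changes: the 10 named Sox5 had a median log2 of 3.07, the 6 more distal ones 2.72, and Spearman's rho of position with log2 was -0.58 over the 16 pieces, given as a description because neighbours on 1 strand are not independent. Together they covered 46.7% of the stretch between the coding starts and the distal start. The gaps between them ran from 2668 to 83323 bp with a median of 7939 bp. Whether they belong to 1 RNA or to several was not tested.

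The most distal piece, chr6:144741157-144781991, began 14 bp upstream of the most upstream GENCODE start of Sox5, that of a retained-intron transcript. In RefSeq Sox5 reaches 144782287, so by that annotation the piece began inside the gene. This piece was 40835 bp long and 7.50-fold higher in TKO (log2 2.91). Between Sox5 and Bcat1, a gap of 211857 bp in GENCODE, the table listed 2 transcripts on the minus strand. The longer, chr6:144945401-144960603, was 7.94-fold higher (log2 2.99), and the shorter, chr6:144963193-144965238, was 40.5-fold higher (log2 5.34).

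The gene transcript of Bcat1 had a smaller fold change than the transcripts of other classes under its name in the authors' deposited table. This gene transcript, chr6:144984630-145076157, was 3.36-fold higher in TKO (log2 1.75) and began at the RefSeq start of Bcat1, 27 bp inside the GENCODE start. The antisense transcript within it, chr6:145018990-145020551 on the plus strand, was 171-fold higher (log2 7.42). That value was the highest of the 373 antisense transcripts listed and stood at rank 21 of all 5723. The WT levels behind these folds are not in the table. At 91528 bp the gene transcript was also the longest named Bcat1, and longer transcripts tended to have smaller fold changes in the table.

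The start of Bcat1 was covered on both strands. The plus-strand transcript over it, chr6:145075201-145079380, was 5.96-fold higher in TKO (log2 2.58), and the minus-strand transcript on its 5′ side, chr6:145076158-145077456, was 6.58-fold higher (log2 2.72). Farther upstream, a minus-strand transcript at chr6:145082542-145084423 was 13.9-fold higher (log2 3.79). The 2 plus-strand transcripts that follow, chr6:145084212-145089801 and chr6:145092469-145103122, were 47.0-fold and 21.9-fold higher (log2 5.56 and 4.45). All of these transcripts carry the name Bcat1, which in the table counts 15 in all.

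Lrmp, an endoplasmic reticulum membrane protein of lymphoid cells, is transcribed away from Bcat1. Its gene transcript, chr6:145115635-145180375, was 11.6-fold higher in TKO (log2 3.53). The piece on its 5′ side, chr6:145111701-145115634, was 30.4-fold higher (log2 4.93) and began within a few bases of the RefSeq start of Lrmp, at 145111715. The fold of Lrmp was thus larger than that of Bcat1.

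At Casc1 the values came down to the lower limit of the table. Casc1, a protein of cilia and flagella, had a gene transcript at chr6:145199864-145210970 that was 2.17-fold higher (log2 1.12), the lowest of the 33. A second transcript under its name, chr6:145174093-145176699, lay over the 3′ end of Casc1 and was 9.06-fold higher (log2 3.18). No gene transcript of Etfrf1, a regulator of the electron transfer flavoprotein, or of Lmntd1, a lamin tail domain gene, was listed, which says only that none passed the authors' limit.

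Outside the stretch, the closest listed transcripts had small fold changes in either direction. On the Sox5 side, after 711391 bp with none listed, an intergenic transcript named Etnk1 had a log2 of 1.40 and the Etnk1 gene one of -1.13. On the other side, 1813956 bp passed before the next, Klhl42, with a log2 of -1.09. In windows of 2 Mb aligned to the stretch, the 33 transcripts were the most of any of the 1053 windows with a listed transcript, the median being 4 and the next highest 26. When the window was moved in steps of 0.1 Mb, a window on chromosome 11 reached 33 too, of which 29 were higher. Of the 168 aligned windows with 10 or more listed, 33 held higher transcripts only and 12 lower ones only. Read in order along chromosomes, the domain belonged to a run of 34 transcripts with 1 direction, and 7 runs elsewhere were longer.

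**Figure D2:**
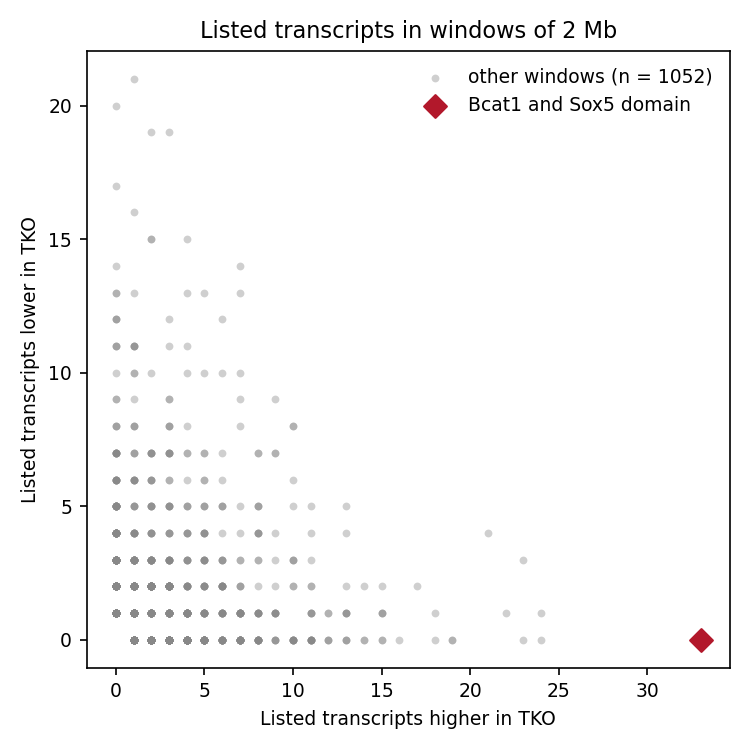
Number of listed transcripts lower in TKO (vertical) against the number higher in TKO (horizontal) in each 2 Mb window, 1 point per window, darker where points coincide, with the domain as a diamond. The domain stands at 33 higher and 0 lower, to the right of all 1052 other windows aligned to it.

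Longer transcripts had smaller fold changes, in the domain and in the table. Spearman's rho between length and log2 was -0.32 over the 33 transcripts and -0.39 over the 3437 higher ones, again as a description. The histogram of fold changes shows where the domain lies among them.

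**Figure D3:**
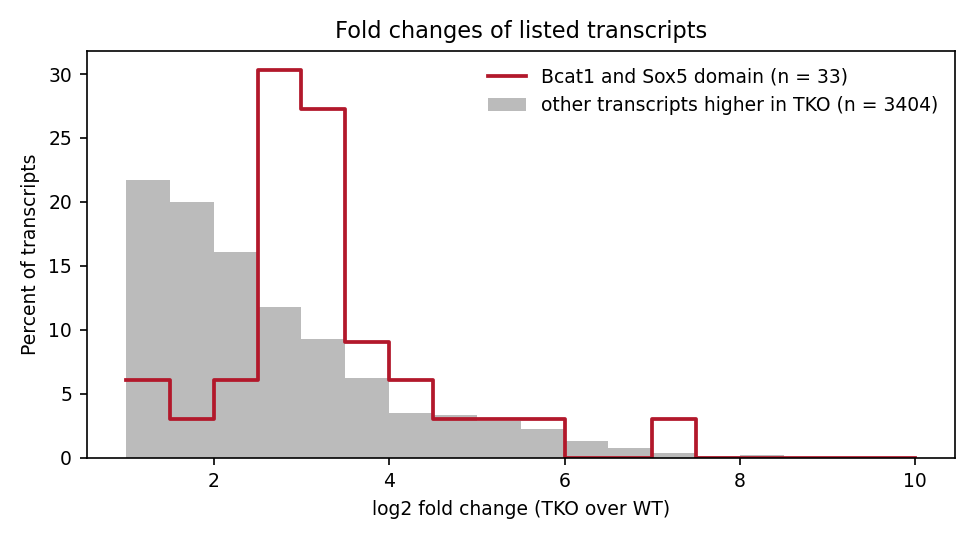
Percent of transcripts (vertical) by log2 fold change in steps of 0.5 (horizontal), for the 33 of the domain (line) and the 3404 other transcripts higher in TKO (bars), from the authors' deposited table. The domain peaks between 2.5 and 3.5, and the other transcripts are most frequent at the table's lower limit of 1.

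The rule did not use genotype differences of the R-loop peaks, so these could be tested between libraries. The share of a library's RNH peaks that fell in the domain was 0.0313% and 0.121% in the WT libraries and 0.0591% and 0.124% in the TKO libraries. The groups overlapped. The mean was 0.0915% ± 0.0458 in TKO and 0.0762% ± 0.0634 in WT (SD, n = 2), and a two-sided exact permutation test gave p = 0.67, with 0.33 the smallest p that 2 against 2 libraries allow. The lists behind these shares were of unequal length, with 22336 and 6612 peaks in WT and 25392 and 6458 in TKO, and the number in the domain was 7, 8, 15 and 8. In both genotypes the shorter list had the higher share, and read depth is unknown.

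The median fold enrichment of the peaks in the domain, the authors' value over local background, was 3.61 and 4.29 in WT and 3.48 and 5.22 in TKO. On the log2 scale the mean of these medians was 2.09 ± 0.412 in TKO and 1.98 ± 0.172 in WT (SD, n = 2), and the exact permutation test gave p = 1. The medians over the whole lists were 3.74, 4.34, 3.80 and 4.67 in the same order, so the domain's peaks were near the middle of each list. A difference between genotypes beyond the spread between replicates was not detectable, in a design that could not reach 0.05.

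Of the 21 regions, 12 had a peak in 1 library, 3 in 2, 4 in 3 and 2 in all 4. The region at the distal start of Sox5, chr6:144781371-144782036, had peaks in both TKO libraries, with fold enrichments of 4.60 and 4.91 and -log10 q of 9.50 and 5.21, and none in either WT list. It was the 1 region of 21 with that pattern, which 1.21% of all regions in the genome showed. No region of the domain had peaks in both WT libraries and no TKO library, which 1.24% of all regions showed. Counts of 1 and 0 among 21 regions are too small to be set apart from these shares. The region includes the 5′ end of the most distal Sox5 piece, 7.50-fold higher in TKO cheRNA, and the G-rich intron printed first, which lies under the peak of TKO replicate 1 only.

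In the tandem array of the Sox5 intron, the merged region held peaks of 2.97-fold and 3.16-fold in WT, below the medians of their lists, and of 4.43-fold and 5.53-fold in TKO, above theirs. The array also held another WT peak, of 3.15-fold in replicate 2 at chr6:144667586-144668012, where neither TKO library had one. Of the 1970 regions with a peak in all 4 libraries, 1.98% lay below the list median in both WT libraries and above it in both TKO libraries. The domain held 2 regions with 4 peaks, too few to be set against that share. The other region with 4 peaks, chr6:145210594-145211636 over the starts of Casc1 and Etfrf1, reached 5.42-fold and 5.58-fold in WT and 4.89-fold and 6.19-fold in TKO. Each of these lay above the median of its list, as did 35.7% of the 1970 regions. Casc1 was 2.17-fold higher in TKO cheRNA, and Etfrf1 was not listed.

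**Figure D4:**
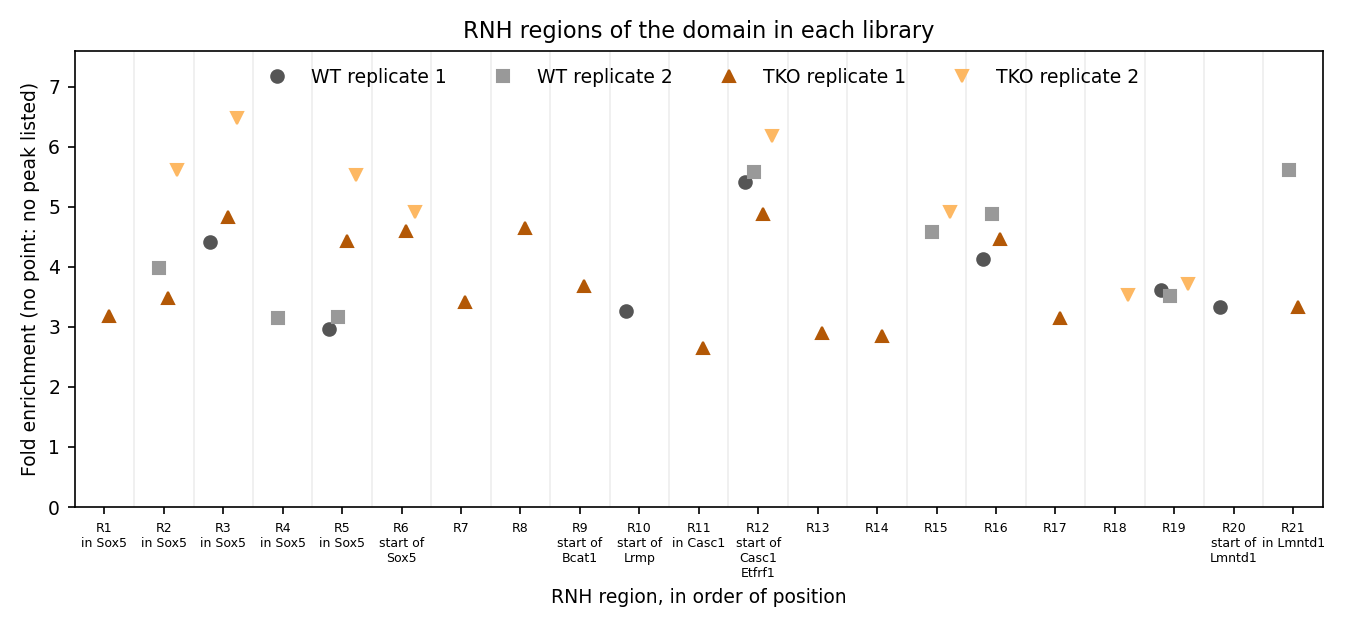
Fold enrichment (vertical, the authors' value, linear scale from 0) of each of the 21 RNH regions of the domain, in order of position from the Sox5 to the Lmntd1 side, with 1 symbol per library and no symbol where the library listed no peak. Regions R5 and R12 have all 4 symbols, and R6 at the distal Sox5 start has both TKO symbols and no WT symbol.

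Other gene starts had peaks in single libraries. At the Bcat1 start, chr6:145075770-145076120, only TKO replicate 1 had a peak, of 3.68-fold. Near a GENCODE start of Lrmp at 145115653, downstream of its RefSeq start at 145111715, only WT replicate 1 had one, of 3.26-fold. At an internal start of Lmntd1 only WT replicate 1 had one, of 3.34-fold. Both replicates named are the longer lists of their genotypes, and the shorter lists had no peak at these starts. Within 1 kb of the 5′ ends of the 33 transcripts, peaks were found for 3 and 2 in WT and for 6 and 2 in TKO. As shares these were 9.09% and 6.06% in WT and 18.2% and 6.06% in TKO, against 21.7%, 5.11%, 26.2% and 8.14% of the 3404 other transcripts higher in TKO.

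Regions inside Sox5 were not limited to its distal start. The WT libraries had 2 and 3 peaks in Sox5 and the TKO libraries 5 and 4. In 2 intronic regions 3 libraries had a peak, chr6:144273094-144273873 in WT replicate 2 (3.99-fold) and both TKO libraries (3.48-fold and 5.62-fold), and chr6:144361194-144361902 in WT replicate 1 (4.42-fold) and both TKO libraries (4.83-fold and 6.49-fold). Both lie within listed pieces, and neither is at an annotated start.

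The control libraries had 568 peaks in WT and 582 in TKO, of which 0 and 1 lay in the domain. The 1 control peak, chr6:145270621-145270809 with a fold of 5.37, overlapped a region with peaks in WT replicate 2 (4.59-fold) and TKO replicate 2 (4.91-fold), and that region repeated every 39 bases with 80.8% identity. In all, 4 of the 21 regions (19.0%) repeated themselves at 80% identity or more, at a spacing from 10 to 200 bases, against 1.59% of the 2013 regions of chromosome 6. They were the 2 in the Sox5 array, this one and a region at chr6:145337784-145338007. The part of the repeats in the peak calls was not tested. The median G + C of the 21 regions was 54.5%, against 57.5% for the 2013 RNH regions of chromosome 6 and 41.4% for the chromosome itself.

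Genes that work with Bcat1 and Sox5 mostly had no gene transcript in the table. Of the 21924 protein-coding genes annotated, 4.14% had one listed as higher in TKO and 4.80% one listed as lower. Of 30 genes of branched-chain amino acid breakdown, 2 had a gene transcript that was higher in TKO, 2 had one that was lower and 26 had none listed. Higher were Bcat1, a domain member that the rule took from this contrast, and Pccb, a subunit of propionyl-CoA carboxylase (log2 1.64). Lower were Hibadh, the 3-hydroxyisobutyrate dehydrogenase of valine breakdown (log2 -2.15), and Ppm1k, the phosphatase that activates the branched-chain ketoacid dehydrogenase (log2 -1.30). The median of the 4, Bcat1 included, was a log2 of 0.17, and 45.0% of listed gene transcripts were higher in the table.

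Of 20 Sox genes, 3 had a gene transcript higher in TKO, 1 had one lower and 16 had none listed, where 45.0% of all listed gene transcripts were higher. Among the higher was Sox5, a domain member that the rule took from this contrast. The others were Sox21 (log2 1.98) and Sox4 (log2 1.65), both higher and both known from neural progenitors. Sox6, the SoxD partner of Sox5, was lower (log2 -1.59). Transcripts of other classes under Sox names numbered 15, all higher. Of these 10 were the intergenic pieces of Sox5, which the rule also took from this contrast, so nothing is read from their direction. The rest were 3 named Sox2 (log2 5.67, 3.61 and 1.74), 1 Sox1 (2.18) and 1 Sox4 (1.54). Of all listed intergenic transcripts, 74.0% were higher. Of 8 cartilage genes bound by Sox5, Sox6 and Sox9, Acan (aggrecan, log2 1.27), Col2a1 (type II collagen, log2 1.06) and Col9a2 (a chain of type IX collagen, log2 2.45) were higher, and Matn1 (matrilin, log2 -1.26) was lower. The other 4 had no gene transcript listed. With 3 higher and 1 lower in each of these lists, the counts are too small to be set apart from the 45.0%.

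Levels are not in the table, so the cell type of the samples could not be checked by its markers. Of 8 embryonic stem cell markers, 0 had a listed gene transcript. Intergenic transcripts under their names were 8 higher and 1 lower. The higher ones were the 3 of Sox2 above, 3 of Nanog (log2 3.56, 2.23 and 1.35) and 2 of Klf4 (2.78 and 2.16), all pluripotency factors. The lower one was of Dppa5a (-1.32). Of all listed intergenic transcripts, 74.0% were higher, and counts of 8 and 1 are too small to be set apart from that share. Of 5 chondrocyte markers 2 were higher and 1 lower, and of 4 fibroblast markers 1 was higher, Vim (log2 2.25). Of 6 neural markers 4 were higher, namely Tubb3 (log2 2.77), Otx2 (1.94), Pax6 (1.52) and Ncam1 (1.12), and of 4 endoderm markers 0 had a gene transcript listed. Transcripts of other classes under neural marker names numbered 4, all higher. Those of Otx2 (log2 2.66), Pax6 (1.66) and Sox1 (2.18, given above) were intergenic. That of Tubb3 (3.57) was in the authors' bidirectional class, of which 158 of 185 listed were higher. Chondrocyte, fibroblast and endoderm markers had no transcript of another class listed. Of all gene transcripts listed 45.0% were higher, and 4.14% of all coding genes had one that was. Their part in the fold changes of the domain was not tested, and more cells of a type and more RNA per cell cannot be told apart in these bulk samples.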

How the data were processed

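Values came from 6 cheRNA samples, through 1 table, and from 6 MapR libraries; samples of the other assays were not analysed here. The submitters' processing notes name mm10 with TopHat2, BWA, SAMtools, bedtools and DESeq2 for cheRNA, and BWA with MACS2 for MapR; the sources used here give no versions, options or peak-calling control. The cheRNA table was deposited by the authors with 1 log2 fold change per transcript. The authors deposited 1 peak list per library, with a fold enrichment (a ratio), -log10 p and -log10 q, and a score derived from the -log10 q. No counts of reads were used, so depth is unknown.

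The sign of each log2 was turned so that positive means higher in TKO, an inference from the H1 genes. Peaks overlapping by at least 1 bp were merged across the 4 RNH libraries; starts are within 1 kb of a GENCODE M21 start. Genotypes were set against each other, 2 libraries to 2, in two-sided exact permutation tests with Python 3.11.15, numpy 2.4.6, pandas 2.3.3 and scipy 1.17.1, and the code was tested on simulated data. Self-identity is the highest share of bases equal to the base 10 to 200 positions on, at the shortest spacing within 10 percentage points of the best. Alternatives were other spans, a stricter peak threshold, equal list lengths, removal of control peaks, summits, a replicate block and leaving out each library. Members and lists were chosen with earlier results of these data known. Named are Bcat1, Sox5, genes naming a listed transcript or with a peak at a start in the stretch, and list or marker genes with a listed gene transcript; the nearest transcripts outside the stretch were named by position. Transcripts of other classes under list genes were named after their values were seen. Some items the rule would name are not reported here.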

Additional observations from a re-analysis of the deposited data

How the results depend on the processing

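The share of RNH peaks in the domain stayed higher in TKO by 0.0153 to 0.0490 percentage points when the stretch was widened or narrowed by 0.5 Mb on both sides, or under a -log10 q of at least 5, the 6000 peaks of highest fold enrichment, removal of peaks at control peaks, or placement by summit. Leaving out 1 library at a time gave -0.0295 to 0.0601, and the direction turned without WT replicate 1 (-0.0295) and without TKO replicate 2 (-0.0171). The difference in median log2 fold enrichment was 0.0901 to 0.554 under the first settings, highest in the narrowed stretch (exact permutation p = 0.33), and -0.177 to 0.407 with 1 library left out, turning without WT replicate 1 (-0.00676) and without TKO replicate 2 (-0.177). With a replicate block the exact p was 0.5 for the share and 1 for the fold enrichment, where 0.5 is the smallest possible; the labels give no pairing beyond the number, and same-numbered libraries deviated together with r = 0.22 over 1337 windows. The cheRNA counts were 35 higher and 2 lower in the widened stretch, 21 higher and 0 lower in the narrowed one, which holds fewer transcripts by construction, 28 higher with the names Bcat1 and Sox5 only, and 30 at a log2 of at least 2. The causes of the changes were not tested. No leaving out of samples was possible for cheRNA, since the table has no value per sample.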
